A study of Homo sapiens with 36 samples.

Results

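The comparison described here is between 12 h and 6 h of camptothecin in SLFN11-knockout DU145 cells. DU145 is a human prostate carcinoma line. The 6 arrays were taken by their titles, 3 at each time, out of 36 arrays in the series. The series holds 12 groups of 3 arrays: SLFN11-knockout and parent cells of DU145 and of the T-cell leukaemia line CCRF-CEM, each after 6 h and 12 h in 250 nM camptothecin and as a control whose harvest time the labels do not give. Per the labels the medium was RPMI1640 with FBS in every group, and DMSO is the other addition named. The parent cells carry SLFN11, and each line has a single knockout group, not stated to be a clone or a pool. Nothing in the labels says that the 3 arrays of a group came from separate cultures, so p-values measure only the spread between these arrays, which may be technical.

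Camptothecin traps topoisomerase I on DNA, which blocks replication forks and also stalls RNA polymerase, so that transcripts of very long genes are lost more readily than short ones. SLFN11 is a nuclear protein that is recruited to stressed replication forks and blocks their progress, and cells that lack it keep replicating and survive such drugs better. Replication-dependent histone genes are transcribed in S phase and their mRNAs are degraded when DNA synthesis stops. Immediate early genes are a set of rapidly induced transcription factors and signalling feedback genes.

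Arrays of the 12 h group correlated with each other at r of 0.984 to 0.985 and those of the 6 h group at 0.986 to 0.987 across genes. None of the marker lists held a gene that passed: 0 of 16 T-lineage, 0 of 12 B-lineage and myeloid, 0 of 12 fibroblast and endothelial and 0 of 19 epithelial markers passed the limma test between the times. At an unadjusted p below 0.05 there was 1 T-lineage marker, 1 fibroblast or endothelial marker and 5 epithelial markers (4 higher, 1 lower). Over all genes 6.01% were higher and 5.18% lower at that p. The mean log2 level of the epithelial markers was 9.47 to 9.59 on the 12 h arrays, against 9.37 to 9.49 on the 6 h arrays. That of the T-lineage markers was 5.90 to 5.98 at 12 h and 5.63 to 5.97 at 6 h, against 10.39 to 10.47 in CCRF-CEM knockout cells at 6 h. The targeted gene, SLFN11, stood at 9.38, 9.59 and 9.68 on the 12 h arrays, against 9.18, 9.005 and 8.92 on the 6 h arrays (brightest of 11 probe sets, log2 signal). Its difference of 0.52 ± 0.17 (SE) did not pass (adjusted p = 0.265). Where the gene was edited is not stated, so these probe sets check the label only if they lie in the edited stretch.

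Between 6 h and 12 h a small number of genes changed in the knockout cells. Among the lower ones were LPP, ADK, LRBA and TBC1D5, and among the higher ones the histone gene H2BC14 and the cytokine gene CXCL8. Of the very long genes 4 of 61 fell, of the mitotic genes 2 of 53 fell and 1 rose, and of the replication-dependent histone genes 4 of 26 rose. Of 22260 genes 86 passed the limma test across all genes at an adjusted p below 0.05, which is 0.386% of the genes tested. They divided into 43 higher at 12 h (0.193%) and 43 lower (0.193%). A log2 difference of 1, a doubling or halving, was reached by 7 of those higher and 12 of those lower. In each of the 86 the 3 arrays at 12 h lay on one side of the 3 at 6 h, and over all genes 9.84% were higher and 8.48% lower without overlap. The 86 were chosen by a test on these same arrays, so their separation adds no support. At an unadjusted p below 0.05 there were 1337 genes higher (6.01%) and 1154 lower (5.18%), and the median difference over all genes was 0.006. Protein-coding genes made up 76 of the 86, and 17899 of all 22260 genes. The other 10 of the 86, not annotated as protein-coding, were all lower at 12 h. In bulk RNA, fewer cells of a kind and less RNA per cell cannot be told apart.

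The list of genes passing was sensitive to single arrays. Leaving out any one of the 6 arrays left between 11 and 23 genes. Only LPP, ADK, LRBA, TBC1D5, CENPA and H2BC14 passed in each of those 6 fits, 29 genes passed in 1 to 5 of them and 51 in 0. With a fit of the 6 arrays alone limma called 0 genes, against 2447 at an unadjusted p below 0.05.

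The largest fall among protein-coding genes was in LPP, which encodes a focal adhesion protein and is carried by a very long gene. LPP stood at 8.86, 8.41 and 8.88 on the 12 h arrays, against 10.16, 10.32 and 10.24 on the 6 h arrays (log2 signal). The highest value at 12 h was below every value at 6 h. The difference was -1.53 ± 0.16 (SE), a level at 12 h of 0.347 of that at 6 h (adjusted p = 0.00146). Before camptothecin its mean was 11.003 ± 0.13 (SD, n = 3), so the level had already been lower at 6 h, by -0.76 ± 0.16 against the control (adjusted p = 0.00898). At 12 h the difference to the control was -2.29 ± 0.16 (adjusted p = 3.61e-06), and both of these comparisons use the same control arrays. Against the control, 8.72% of all genes passed at 6 h (5.32% higher, 3.39% lower) and 10.0% at 12 h (6.31% higher, 3.72% lower).

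ADK encodes adenosine kinase, which phosphorylates adenosine. It stood at 10.22, 10.29 and 10.55 on the 12 h arrays, against 11.59, 11.60 and 11.49 on the 6 h arrays. The arrays of the times did not overlap, and the difference was -1.20 ± 0.15 (adjusted p = 0.00478). In the control, 6 h and 12 h groups the ADK means were 12.01, 11.56 and 10.36. TBC1D5, a regulator of Rab7 and of endosomal traffic, stood at 7.43, 7.25 and 7.73 at 12 h, against 8.57, 8.95 and 8.78 at 6 h, and fell by 1.30 ± 0.17 (adjusted p = 0.00767). LRBA, a vesicle traffic protein that protects the immune receptor CTLA4 from degradation, stood at 8.47, 8.60 and 8.31 at 12 h, against 9.59, 9.37 and 9.47 at 6 h, and fell by 1.02 ± 0.13 (adjusted p = 0.00597). PTPRG, a receptor tyrosine phosphatase, stood at 7.02, 7.23 and 6.92 at 12 h, against 8.57, 8.47 and 8.08 at 6 h. Its fall of 1.31 ± 0.23 passed with all arrays (adjusted p = 0.0287) but not without any one of the 6, at adjusted p of 0.0525 to 0.120.

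Most probe sets of these genes were lower at 12 h. The count was 15 of 17 for LPP (median difference -1.55), 11 of 11 for ADK (median -1.47), 49 of 55 for LRBA (median -0.90), 27 of 29 for PTPRG (median -1.38) and 26 of 28 for TBC1D5 (median -1.03). Their size varied, from -2.66 to 0.52 in PTPRG and from -1.85 to 0.78 in LRBA. Where a probe set lies in its gene was not used here. Probe sets of a gene share their RNA and are not replicates of a condition.

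**Figure D1:**
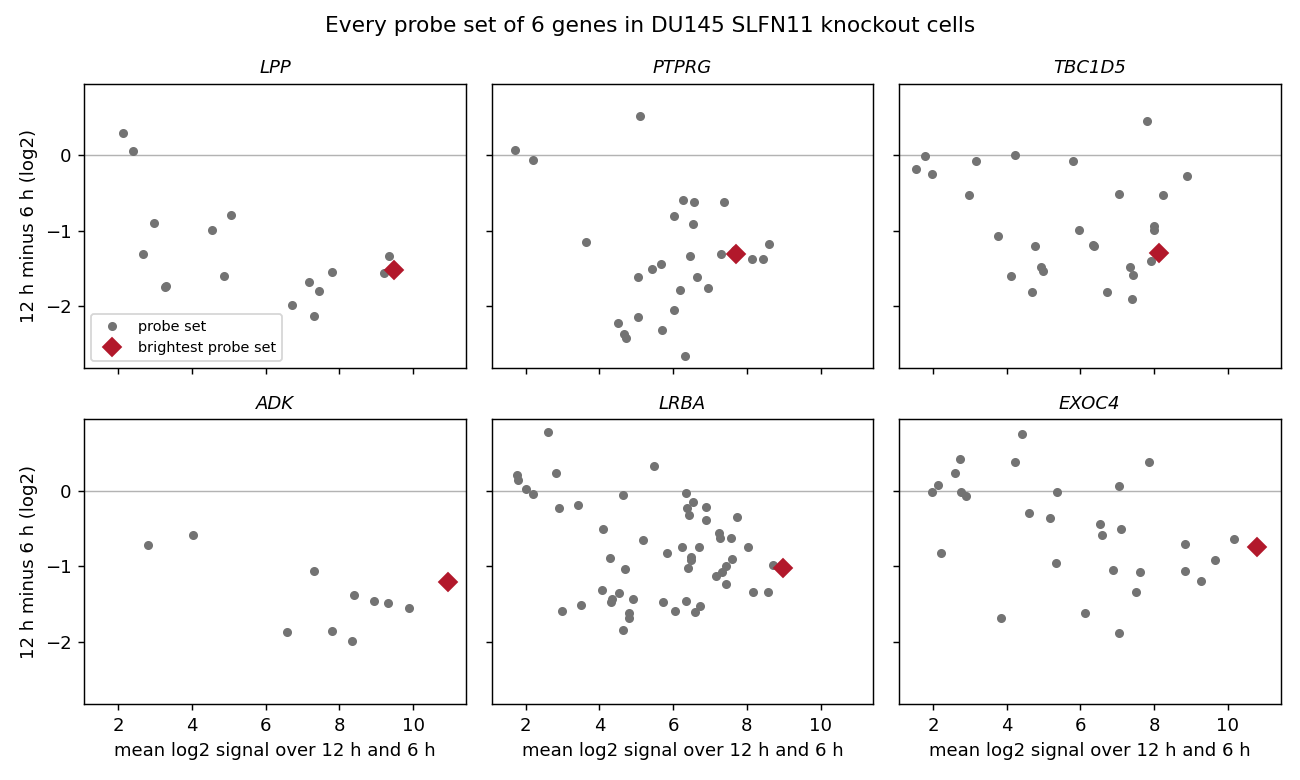
Each probe set of 6 genes in DU145 SLFN11-knockout cells, by its mean log2 signal over 12 h and 6 h (horizontal axis) and its log2 difference, 12 h minus 6 h (vertical axis). The diamond is the brightest probe set, which stood for the gene in all tests. Of LPP 15 of 17 probe sets lie below 0, of ADK 11 of 11 and of LRBA 49 of 55.

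Of a list of 68 very long genes 61 were measured, and 4 passed, all lower at 12 h: LPP, PTPRG, TBC1D5 and SMYD3, a lysine methyltransferase. SMYD3 fell by 0.66 ± 0.13 (adjusted p = 0.0401) and lost the call without any one of the 6 arrays (0.0562 to 0.176). The median difference of the 61 was -0.107, against 0.006 over all genes. Without overlap 11 were lower and 3 higher (all genes: 8.48% and 9.84%). DIAPH2, a formin that nucleates actin, differed by -1.16 ± 0.35 (adjusted p = 0.206) and EXOC6B, a subunit of the exocyst, by -0.97 ± 0.20 (adjusted p = 0.0531), and neither passed. At the other end AUTS2 was at 0.86 (adjusted p = 0.32) and did not pass. When each gene was taken as the mean of all its probe sets, 9 of the 61 passed, again all lower, among them EXOC6B (-0.59), DIAPH2 (-1.001), PTPRM (-0.57) and UTRN (-0.58). Several genes outside the list, picked after their values were seen, fell as well: EXOC4, another exocyst subunit, by 0.75 ± 0.11 (adjusted p = 0.0106), CASK, a synaptic scaffold kinase, by 0.92 ± 0.13 (adjusted p = 0.0106) and ANTXR1, an anthrax toxin receptor, by 0.66 ± 0.09 (adjusted p = 0.0106). Each of these 3 passed in 4 of the 6 fits that left out an array. The length of genes outside the list was not measured, and this includes ADK and LRBA.

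Genes of mitosis went in both directions. CENPA, the histone H3 variant that marks centromeres, stood at 9.02, 8.39 and 8.80 on the 12 h arrays, against 9.64, 9.71 and 9.66 on the 6 h arrays. The 6 h arrays lay within a narrow band above every 12 h array, and CENPA fell by 0.93 ± 0.13 (adjusted p = 0.00933). In the control group CENPA averaged 9.61 ± 0.09 (SD, n = 3) and its difference at 6 h was 0.07 ± 0.13 (adjusted p = 0.841), so the lower level appeared at 12 h. Its 5 probe sets did not move alike, since 4 were lower and 1 higher at 12 h, with a median of -0.30, and their mean did not pass (adjusted p = 0.384). CCNB1, cyclin B1, which with CDK1 drives entry into mitosis, stood at 10.42, 10.27 and 10.45 at 12 h, against 10.93, 10.90 and 11.19 at 6 h. All arrays at 12 h were below those at 6 h and CCNB1 fell by 0.63 ± 0.11 (adjusted p = 0.0306), with 13 of 13 probe sets lower. Control, 6 h and 12 h means of CCNB1 were 11.57, 11.01 and 10.38, a stepwise lower level.

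AURKB, the kinase of the chromosomal passenger complex, moved the other way. It stood at 11.56, 11.62 and 11.46 at 12 h, against 10.96, 11.04 and 11.05 at 6 h, and rose by 0.53 ± 0.10 (adjusted p = 0.0341), with 10 of 10 probe sets higher. Its mean at 12 h, 11.55, differed from that of the control, 11.47, by less than the test could show (adjusted p = 0.688). These 3 genes were those of 53 mitotic genes that passed, 1 higher and 2 lower. The median of the 53 was -0.068, with 8 higher and 15 lower without overlap (all genes: 9.84% and 8.48%). KIF20A, a mitotic kinesin, differed by -0.58 ± 0.12 (adjusted p = 0.0541) and PLK1, polo-like kinase 1, by -0.34 ± 0.12 (adjusted p = 0.27), and did not pass. The calls of CCNB1 and AURKB were lost whichever of the 6 arrays was left out, at adjusted p of 0.0714 to 0.139 and 0.0678 to 0.141.

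**Figure D2:**
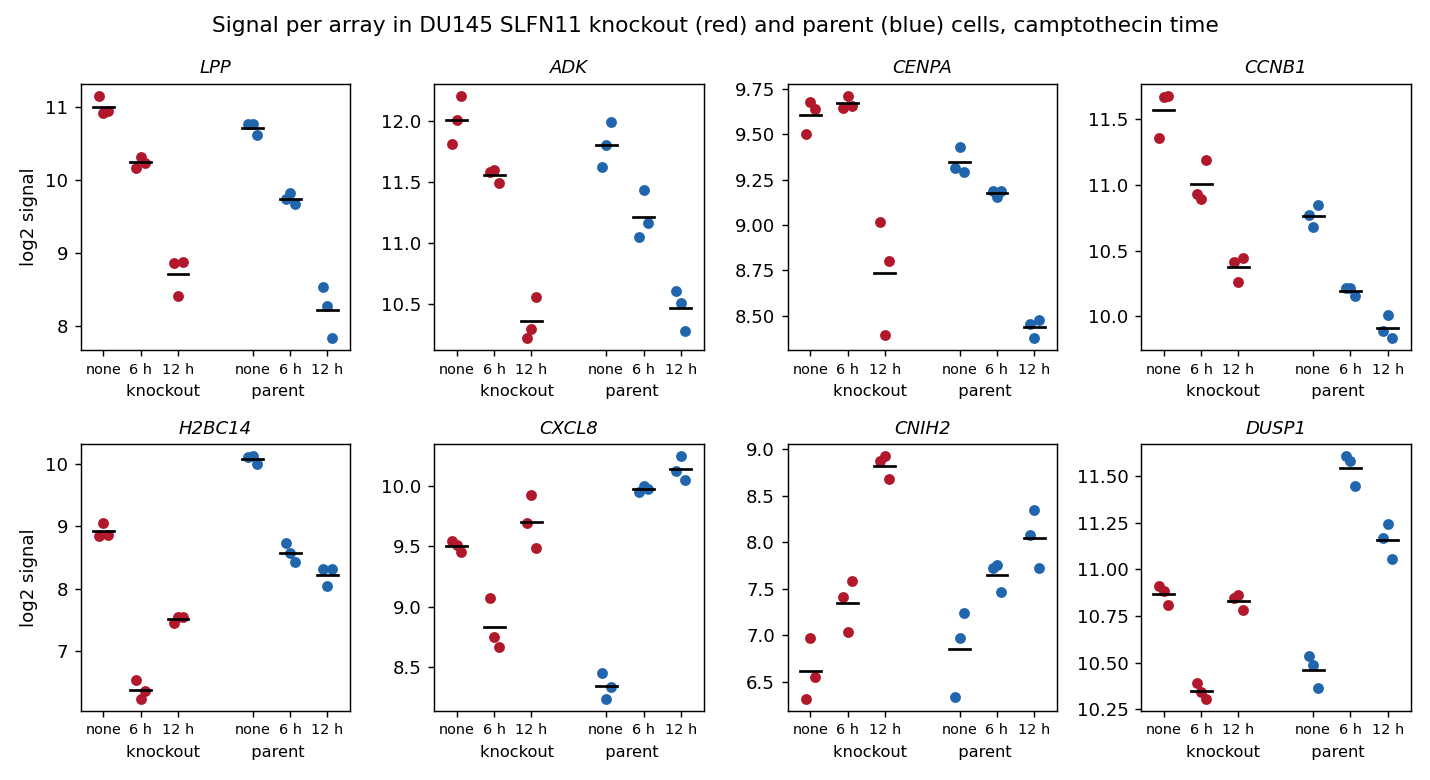
Log2 signal of 8 genes on each array of DU145 SLFN11-knockout cells (left in each panel) and parent cells (right), without camptothecin (none) and after 6 h and 12 h. Points are arrays and bars are group means. In knockout cells the bars of LPP, ADK and CCNB1 are lower at each step, that of CENPA is lower at 12 h, and that of H2BC14 is lower at 6 h and in part back up at 12 h.

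Replication-dependent histone genes encode the histones packed onto new DNA. Of 63 on the list 26 were measured, and 4 passed, all higher at 12 h than at 6 h: H2BC14, H1-5, H2AC21 and H2BC21. The promoters of the first 3 are shown because every probe set of these genes was higher at 12 h. They are RefSeq windows on GRCh38.p14, from 250 bases before to 50 after the start, printed 5′ to 3′ along the gene. Capitals mark CCAAT boxes (CCAAT or its reverse ATTGG), the octamer core (TTTGCAT or ATGCAAA) and TATA elements (TATAAA or TTTATA). H2BC14 lies at chr6:27814772-27815071 on the plus strand, H1-5 at chr6:27867539-27867838 on the minus strand and H2AC21 at chr1:149887916-149888215 on the minus strand.
H2BC14: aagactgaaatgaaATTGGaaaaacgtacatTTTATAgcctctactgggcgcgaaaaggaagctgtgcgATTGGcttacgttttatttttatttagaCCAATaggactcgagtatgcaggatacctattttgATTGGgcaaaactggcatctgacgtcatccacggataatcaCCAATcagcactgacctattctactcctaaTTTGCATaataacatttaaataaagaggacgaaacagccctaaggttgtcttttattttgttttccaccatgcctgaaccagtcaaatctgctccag
H1-5: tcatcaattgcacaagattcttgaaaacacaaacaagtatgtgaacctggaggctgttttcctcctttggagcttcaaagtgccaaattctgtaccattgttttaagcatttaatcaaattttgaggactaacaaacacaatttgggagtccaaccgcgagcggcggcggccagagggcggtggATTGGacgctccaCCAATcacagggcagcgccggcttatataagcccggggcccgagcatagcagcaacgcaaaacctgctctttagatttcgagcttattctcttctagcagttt
H2AC21: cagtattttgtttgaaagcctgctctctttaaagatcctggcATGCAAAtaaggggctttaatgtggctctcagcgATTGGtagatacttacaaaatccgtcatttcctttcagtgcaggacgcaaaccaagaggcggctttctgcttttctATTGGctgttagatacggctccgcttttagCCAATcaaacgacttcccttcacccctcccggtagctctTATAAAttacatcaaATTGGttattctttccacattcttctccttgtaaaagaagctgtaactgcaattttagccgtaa

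Of the 26 measured histone genes 25 have a window in the RefSeq table. The CCAAT motif was in 25 of the 25, the octamer core in 14 and the TATA motif in 16, on either strand. Over all 35116 windows of the table the shares were 34.6%, 4.46% and 11.5%. These letters are found in histone genes that passed and in those that did not. By these exact letters the H1-5 window holds the CCAAT motif alone. That window does hold a close variant of the TATA letters, downstream of its CCAAT boxes, which the search did not count. A window without the exact letters can therefore still carry a TATA element. The window of H2BC14 overlaps that of its divergent neighbour H2AC14 by 256 bases, and the TTTATA printed for H2BC14 lies in that shared stretch, in the reverse orientation. H2AC14 differed by 0.10 ± 0.15 (adjusted p = 0.86).

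H2BC14, which encodes a histone H2B, stood at 7.45, 7.55 and 7.54 on the 12 h arrays, against 6.53, 6.24 and 6.36 on the 6 h arrays. All 12 h arrays were above the 6 h arrays, and H2BC14 rose by 1.14 ± 0.12, or 2.20-fold (adjusted p = 0.00146). It was the only histone gene that passed without any one of the 6 arrays. Its control level was 8.92 ± 0.11 (SD, n = 3), so at 6 h it stood 2.54 ± 0.12 below the control in log2 (difference -2.54, adjusted p = 2.61e-08), and at 12 h the difference was -1.40 ± 0.12 (adjusted p = 8.17e-06). H1-5, a linker histone, stood at 8.83, 8.83 and 8.68 at 12 h, against 7.73, 8.36 and 7.64 at 6 h, and rose by 0.87 ± 0.17 (adjusted p = 0.0454). Control, 6 h and 12 h means of H1-5 were 10.01, 7.91 and 8.78. H2AC21, a histone H2A gene, stood at 11.16, 11.25 and 11.13 at 12 h, against 10.35, 10.81 and 10.68 at 6 h, and rose by 0.57 ± 0.11 (adjusted p = 0.0356). Both H1-5 and H2AC21 passed without array 2 of the 6 h group (adjusted p = 0.0180 and 0.0454) and lost the call without any other of the 6, at adjusted p of up to 0.178 and 0.149.

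H2BC21 rose by 0.50 ± 0.10 on its brightest probe set (adjusted p = 0.0445), at 11.23, 11.25 and 11.16 at 12 h, against 10.74, 10.74 and 10.66 at 6 h. Of its 3 probe sets 1 was lower, and the mean of the 3 was -0.156 (adjusted p = 0.548). H2AC12 reached 0.66 ± 0.14 (adjusted p = 0.0511) and H1-4 0.51 ± 0.15 (adjusted p = 0.203), and neither passed. Over the 26 genes the median was 0.087, with 8 higher and 9 lower without overlap (all genes: 9.84% and 8.48%). The list as a whole thus did not move one way. H3C4, at -1.37 ± 0.28 (adjusted p = 0.0511), H2BC11, at -0.81 ± 0.23, and H2BC18, at -0.79 ± 0.27, were on the lower side and did not pass. With the mean of all probe sets limma called H3C4 lower (-1.37, adjusted p = 0.009) and 4 of the 26 higher. H3C4 also passed as lower with all 36 arrays in 1 fit and with a variance trend and robust moderation. In each of those fits 6 histone genes passed as higher. Histone genes are near-identical in sequence, so that signal may be shared between copies.

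**Figure D3:**
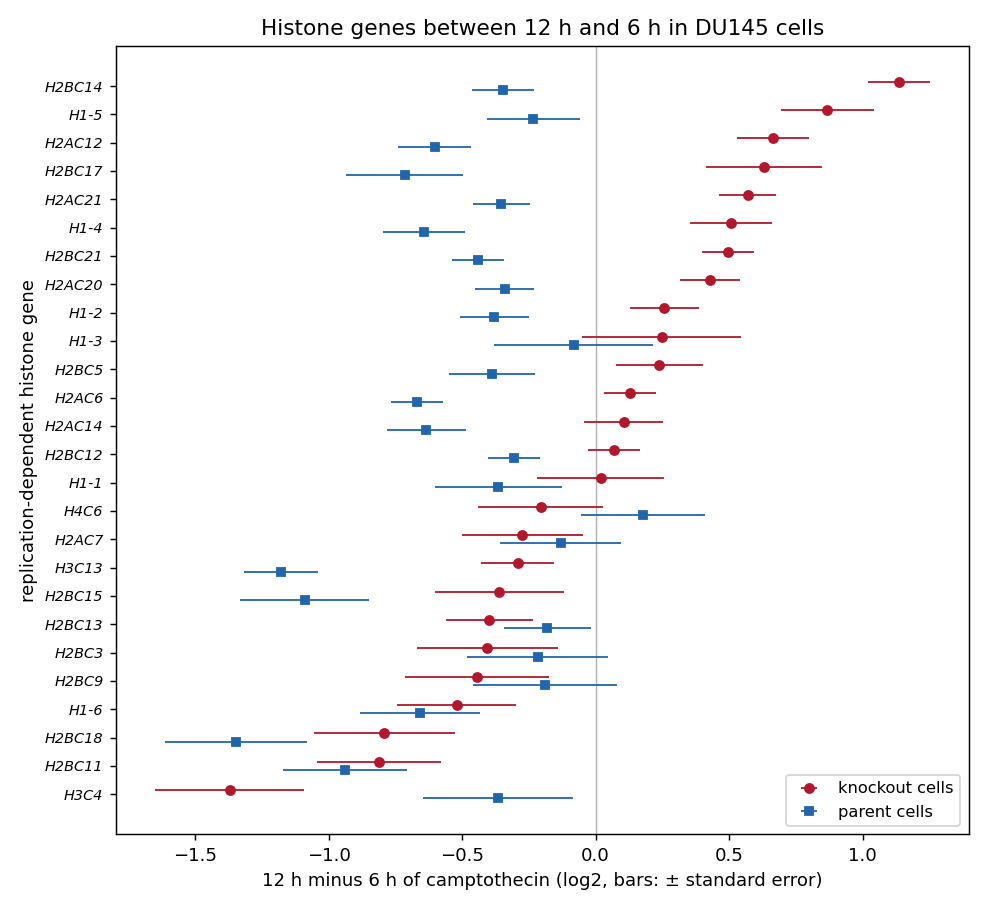
Log2 difference, 12 h minus 6 h, of the 26 measured replication-dependent histone genes in DU145 SLFN11-knockout cells (circles) and parent cells (squares), with bars of ± SE from limma. In knockout cells the genes run from 1.14 for H2BC14 to -1.37 for H3C4, and in parent cells 18 of the 26 were lower at 12 h without overlap and 0 higher, where 9.91% and 7.37% of all genes were.

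Among immediate early genes 2 of 45 passed, both higher at 12 h. The list had a median of 0.156, with 13 higher against 3 lower without overlap (all genes: 9.84% and 8.48%). DUSP1, a phosphatase that shuts down MAP kinases, stood at 10.84, 10.86 and 10.78 on the 12 h arrays, against 10.39, 10.34 and 10.31 on the 6 h arrays. The groups were apart by more than their own range, and DUSP1 rose by 0.48 ± 0.09 (adjusted p = 0.0345), with 6 of 6 probe sets higher. Its control level was 10.87 ± 0.05 (SD, n = 3), so DUSP1 was below the control at 6 h (-0.52 ± 0.09, adjusted p = 0.00249) and differed from it at 12 h by less than the spread (-0.04 ± 0.09, adjusted p = 0.87). HBEGF, a ligand of the epidermal growth factor receptor, stood at 10.40, 10.53 and 10.24 at 12 h, against 9.77, 9.68 and 9.71 at 6 h, and rose by 0.67 ± 0.13 (adjusted p = 0.0357). HBEGF had 9 of 11 probe sets higher. Both calls were lost without any one of the 6 arrays, at adjusted p of 0.0832 to 0.138 for DUSP1 and 0.0616 to 0.160 for HBEGF.

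NR4A2, an orphan nuclear receptor, at 0.77 ± 0.21 (adjusted p = 0.15), and CCN2, a matricellular protein and target of YAP, at 0.73 ± 0.17 (adjusted p = 0.106), did not pass. JUN, a subunit of AP-1, was at 0.14 ± 0.12 and JUNB at 0.00 ± 0.13, with overlapping arrays. With the mean of all probe sets 6 of the 45 passed, all higher: DUSP1, HBEGF, NR4A1 (0.51), NR4A2 (0.49), DUSP6 (0.43) and CCN2 (0.69).

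CXCL8, the neutrophil chemokine interleukin 8, was the member of 26 NF-kB and cytokine genes that passed. It stood at 9.69, 9.93 and 9.49 on the 12 h arrays, against 9.08, 8.75 and 8.66 on the 6 h arrays. CXCL8 rose by 0.87 ± 0.13, or 1.83-fold (adjusted p = 0.0106), with 6 of 6 probe sets higher. In the control group it averaged 9.50 ± 0.05 (SD, n = 3), and the 6 h level was below that, by -0.67 ± 0.13 (adjusted p = 0.00422), while the 12 h level differed from it by 0.20 ± 0.13 (adjusted p = 0.401). The call held without array 3 of the 12 h group or array 1 of the 6 h group (adjusted p = 0.0154 and 0.0145) and was lost without any of the other 4, at up to 0.0574. The median of the list was 0.190, with 9 higher and 1 lower without overlap (all genes: 9.84% and 8.48%). NFKBIA, the NF-kB inhibitor, at 0.34 ± 0.13 (adjusted p = 0.338), did not pass.

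Among 25 integrated stress response and unfolded protein response genes 1 rose and 1 fell. PHGDH, the first enzyme of serine synthesis, stood at 10.41, 10.34 and 10.52 at 12 h, against 9.91, 9.73 and 9.97 at 6 h, and rose by 0.55 ± 0.11 (adjusted p = 0.0401). HSPA5, the endoplasmic reticulum chaperone BiP, stood at 11.18, 10.99 and 11.06 at 12 h, against 11.54, 11.66 and 11.67 at 6 h, and fell by 0.55 ± 0.10 (adjusted p = 0.0365). The mean of all PHGDH probe sets was 0.21 (adjusted p = 0.318), with 16 of 22 higher. Neither gene passed without any one array (adjusted p of 0.0951 to 0.167 and 0.0851 to 0.160). The stress transcription factors ATF3 and DDIT3 stood at 5.47 ± 0.60 and 6.28 ± 0.67 at 12 h, against 4.94 ± 0.29 and 6.19 ± 0.39 at 6 h (SD, n = 3), and did not pass (adjusted p = 0.58 and 0.955).

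Most genes of S phase and DNA repair had positive differences, but few passed. FANCA, a core subunit of the Fanconi anaemia ligase that acts on blocked forks, was the one of 51 DNA damage checkpoint and homologous recombination genes to do so. It stood at 11.01, 10.99 and 11.04 on the 12 h arrays, against 10.26, 10.37 and 10.53 on the 6 h arrays, and rose by 0.63 ± 0.11 (adjusted p = 0.0287), with 38 of 40 probe sets higher. At 6 h its level differed from the control by 0.01 ± 0.11 (adjusted p = 0.977) and at 12 h by 0.64 ± 0.11 (adjusted p = 0.002). BRCA1, which acts in homologous recombination, was at 0.55 ± 0.13 (adjusted p = 0.0836) and did not pass. With the mean of all probe sets limma called 5 of the 51, all higher: BRCA1 (0.545, adjusted p = 0.00692), FANCA, FANCG, FANCI and EME1. BRCA1 also passed with all 36 arrays in 1 fit and with a variance trend and robust moderation. The median of the list was 0.095, with 16 higher and 0 lower without overlap (all genes: 9.84% and 8.48%).

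Of 55 DNA replication genes 47 had a positive difference, against 11342 of all 22260 genes, and 0 passed with limma. At an unadjusted p below 0.05 19 were higher and 0 lower (all genes: 6.01% and 5.18%). Without overlap 26 were higher and 0 lower (all genes: 9.84% and 8.48%), and the median was 0.186. PRIM2, a primase subunit, reached 0.50 (adjusted p = 0.22) and MCM2, a subunit of the replicative helicase, 0.44 (adjusted p = 0.18). In other fits a few did pass, 4 with the mean of all probe sets (CDC45, POLD1, CLSPN and TIMELESS) and 2 with all 36 arrays in 1 fit, each higher. MYBL2, a transcription factor of the cell cycle, was the member of 25 G1/S cyclin and E2F genes that passed. It stood at 11.65, 11.78 and 11.67 at 12 h, against 11.25, 11.26 and 11.22 at 6 h, and rose by 0.46 ± 0.09 (adjusted p = 0.0445). CCNE1, cyclin E1, stood at 9.41, 9.55 and 9.69 at 12 h, against 8.92, 8.61 and 8.67 at 6 h, a difference of 0.82 ± 0.20 (adjusted p = 0.106) that did not pass, but did so with the mean of all probe sets (0.78, adjusted p = 0.000501) and with all 36 arrays in 1 fit. With the mean of all probe sets 2 of the 25 passed higher, CCNE1 and MYBL2, and 1 lower, CCND1, cyclin D1 (-0.451, adjusted p = 0.0295). The list's median was 0.167, with 12 higher and 2 lower without overlap (all genes: 9.84% and 8.48%). CDKN1A, the inhibitor p21 of cyclin-dependent kinases, stood at 9.94, 9.76 and 9.75 at 12 h, against 9.24, 9.41 and 9.31 at 6 h. CDKN1A rose by 0.49 ± 0.10 (adjusted p = 0.0407), while the mean of its 10 probe sets was 0.31 (adjusted p = 0.251). The calls of FANCA, MYBL2 and CDKN1A were each lost without any one of the 6 arrays, at adjusted p of 0.0525 to 0.122, 0.106 to 0.178 and 0.0892 to 0.157.

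**Figure D4:**
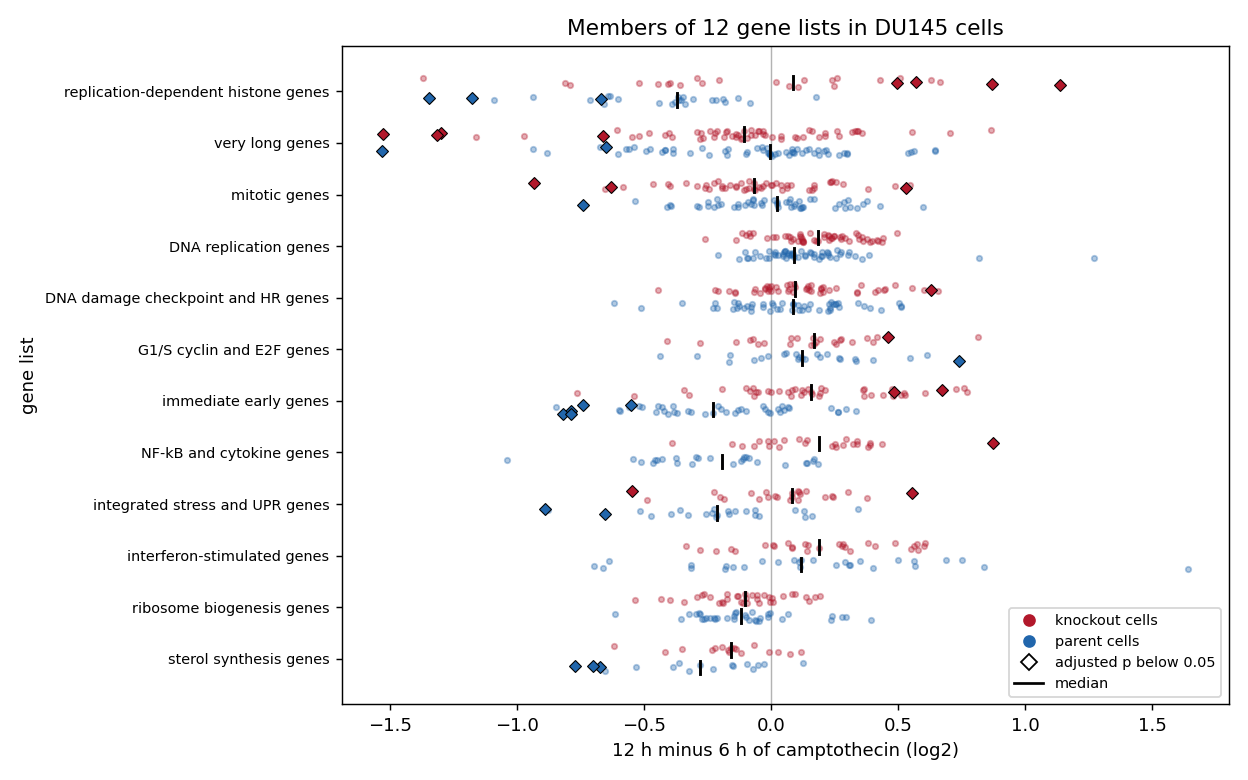
Members of 12 gene lists by their log2 difference, 12 h minus 6 h, in DU145 SLFN11-knockout cells (upper row of each list) and parent cells (lower row). Points are genes, diamonds those with an adjusted p below 0.05, and black bars list medians. In knockout cells the DNA replication genes have a median of 0.186 and no diamond, and the very long genes have a median of -0.107 with 4 diamonds, all below 0.

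Interferon-stimulated genes depended on how probe sets were combined. With the brightest probe set 0 of 29 passed with limma, and the median was 0.187. At an unadjusted p below 0.05 8 were higher and 0 lower (all genes: 6.01% and 5.18%). With the mean of all probe sets 6 passed, all higher: OAS2 by 1.08, MX1 by 0.76, OAS1 by 0.64, HERC6 by 0.60, IFI44 by 0.52 and IFI6 by 0.43. Of these, IFI6 and IFI44 were also higher without overlap on the brightest probe set, at 0.41 ± 0.11 and 0.60 ± 0.32 (adjusted p = 0.136 and 0.522). MX1 differed by -0.34 ± 0.82 and OAS1 by -0.28 ± 0.49 there, the opposite sign, with arrays that overlapped.

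Ribosome biogenesis and sterol genes stayed short of the threshold. For ribosome biogenesis 0 of 36 genes passed with limma, and the median was -0.101. At an unadjusted p below 0.05 0 were higher and 7 lower (all genes: 6.01% and 5.18%). RRS1, an assembly factor of the large subunit, was at -0.54 (adjusted p = 0.08). With the mean of all probe sets 5 passed, all lower, NPM1 and DDX21 among them. Of 17 sterol synthesis genes 0 passed with limma, and the median was -0.160. At an unadjusted p below 0.05 0 of them were higher and 2 lower (all genes: 6.01% and 5.18%). Among 55 ribosomal protein genes RPS10 rose by 0.74 ± 0.11 (adjusted p = 0.0106) and RPS20 fell by 0.86 ± 0.17 (adjusted p = 0.0455). RPS20 lost the call without any one array (up to 0.196) and RPS10 in 3 of the 6 fits (up to 0.0616). Each rests on a single probe set in a family with many processed copies, and the list's median was -0.013.

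Across the 35 gene lists 853 genes were measured and 21 passed, 13 higher and 8 lower. The largest rises were in genes outside the lists above. CNIH2, an auxiliary subunit of AMPA glutamate receptors, stood at 8.87, 8.92 and 8.67 on the 12 h arrays, against 7.41, 7.04 and 7.58 on the 6 h arrays. It rose by 1.48 ± 0.23, or 2.79-fold (adjusted p = 0.0174), and its control, 6 h and 12 h means were 6.62, 7.34 and 8.82. CPA4, a secreted carboxypeptidase, stood at 8.73, 8.73 and 8.55 at 12 h, against 7.12, 7.05 and 7.92 at 6 h, and rose by 1.30 ± 0.21 (adjusted p = 0.0174). CNIH2 and CPA4 kept the call without array 3 of the 12 h group or array 3 of the 6 h group and lost it without any of the other 4, at adjusted p of up to 0.0774 and 0.0826. With the mean of all probe sets the rises were smaller, 0.90 for CNIH2 and 0.60 for CPA4 (adjusted p = 9.38e-05 and 0.000814).

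GKN2, a stomach mucosal protein, stood at 8.38, 8.41 and 9.08 at 12 h, against 7.28, 7.55 and 7.50 at 6 h, and rose by 1.18 ± 0.18 (adjusted p = 0.012), with 8 of 8 probe sets higher. AQP3, a water and glycerol channel of epithelia, stood at 9.12, 8.96 and 8.996 at 12 h, against 7.63, 8.30 and 8.04 at 6 h, and rose by 1.03 ± 0.15 (adjusted p = 0.0106), with 10 of 11 higher. For GKN2 the call was lost without array 1 or 3 of the 6 h group (adjusted p = 0.0547 and 0.0503), and for AQP3 without array 1 of the 12 h group (adjusted p = 0.0589). At 6 h GKN2 differed from the control by -0.05 ± 0.18 and AQP3 by 0.01 ± 0.15, neither past the threshold.

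The remaining rises by the naming rule were smaller and less stable. SLC1A4, a neutral amino acid transporter, rose by 1.00 ± 0.18 (adjusted p = 0.0296) and REEP1, a protein that shapes the endoplasmic reticulum, by 0.97 ± 0.19 (adjusted p = 0.0411). HUNK, a kinase of the AMPK family, rose by 1.01 ± 0.18 (adjusted p = 0.0306), TMEM135, a peroxisomal and mitochondrial membrane protein, by 1.05 ± 0.18 (adjusted p = 0.0235) and TCEA2, an elongation factor of the TFIIS family, by 0.88 ± 0.18 (adjusted p = 0.0454). SLC1A4, REEP1 and TCEA2 failed without any one of the 6 arrays, at adjusted p of up to 0.122, 0.177 and 0.183. The mean of all probe sets ended the call of TMEM135 (0.28, adjusted p = 0.284), HUNK (0.39, 0.0976) and TCEA2 (0.38, 0.0577) and was 0.60 for SLC1A4 and 0.61 for REEP1 (adjusted p = 0.0268 and 0.036). HUNK and TMEM135 passed only without array 2 of the 12 h group (adjusted p = 0.0331 and 0.0386). TMEM135 had been lower at 6 h than in the control, by -1.76 ± 0.18 (adjusted p = 4.94e-05). Its 12 h level was still below the control, by -0.71 ± 0.18 (adjusted p = 0.0182). The next 4 genes were picked after their values were seen. TNFRSF9, a receptor that costimulates T cells, rose by 0.84 ± 0.16 (adjusted p = 0.0401), TIMP1, an inhibitor of metalloproteinases, by 0.52 ± 0.10 (adjusted p = 0.0365) and PTGES, which makes prostaglandin E2, by 0.59 ± 0.12 (adjusted p = 0.0445). CITED2, a transcriptional coregulator, rose by 0.84 ± 0.13 (adjusted p = 0.0174). CITED2 passed in 2 of the 6 fits that left out an array and the other 3 in 0.

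Several of the falls rest on probe sets that went different ways. MYO7A, an unconventional myosin of hair cells, stood at 7.36, 7.19 and 7.54 at 12 h, against 8.40, 8.43 and 8.48 at 6 h, and fell by 1.07 ± 0.19 (adjusted p = 0.0306). Yet 28 of its 40 probe sets were higher at 12 h, and the mean of all its probe sets was 0.21 (adjusted p = 0.385). PTGS1, cyclooxygenase 1, fell by 1.09 ± 0.19 (adjusted p = 0.0266), with 8 of 15 probe sets lower, and CDH16, a kidney cadherin, by 0.97 ± 0.15 (adjusted p = 0.0135), with 10 of 20 lower. The means of all their probe sets were -0.099 and -0.048 (adjusted p = 0.834 and 0.899). MCHR2, a receptor of melanin-concentrating hormone, fell by 1.06 ± 0.15 (adjusted p = 0.0106), with 4 of 8 lower, and its mean over all probe sets was 0.0045 (adjusted p = 0.99). C6orf120, a secreted protein, fell by 1.04 ± 0.19 (adjusted p = 0.0341), with 3 of 3 lower and a mean of -0.52. NPIPB8, of a family of near-identical genes on chromosome 16, had a single probe set and stood at 5.32, 5.29 and 5.28 at 12 h, against 6.19, 6.92 and 6.68 at 6 h (-1.30 ± 0.25, adjusted p = 0.0407). None of these calls held in all 6 fits that left out an array. MCHR2 was lost without array 1 or 2 of the 12 h group (adjusted p = 0.0557 and 0.0563), CDH16 without array 2 or 3 of either group (up to 0.0714), and PTGS1, MYO7A, C6orf120 and NPIPB8 without any one array (up to 0.108, 0.135, 0.144 and 0.169).

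The parent cells, which carry SLFN11, were measured at the same times. There 101 genes passed (0.454%), 19 higher at 12 h (0.0854%) and 82 lower (0.368%). Of the 86 genes of the knockout cells 67 had the same sign in parent cells, 29 of the 43 higher and 38 of the 43 lower. The share of all genes with the same sign is not given here, so these counts lack a background. Both genotypes passed for 15, which is 15 of 86 in knockout and 15 of 101 in parent cells, 13 lower in both and 2 higher in both, with 0 in opposite directions. The lower 13 were ADK, ANTXR1, CASK, CENPA, CRIM1, DET1, EXOC4, LPP, LRBA, MZF1, RBM14, SMYD3 and ZNF143, and the 2 higher were CSNK2B and REEP1. LPP differed by -1.53 ± 0.16 in knockout and -1.53 ± 0.16 in parent cells, and the difference between the genotypes was 0.00 (95% interval -0.49 to 0.49). For TBC1D5 it was -1.30 ± 0.17 in knockout and -0.60 ± 0.17 in parent cells, a difference of -0.70 (-1.21 to -0.18, adjusted p = 0.592), which did not pass.

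**Figure D5:**
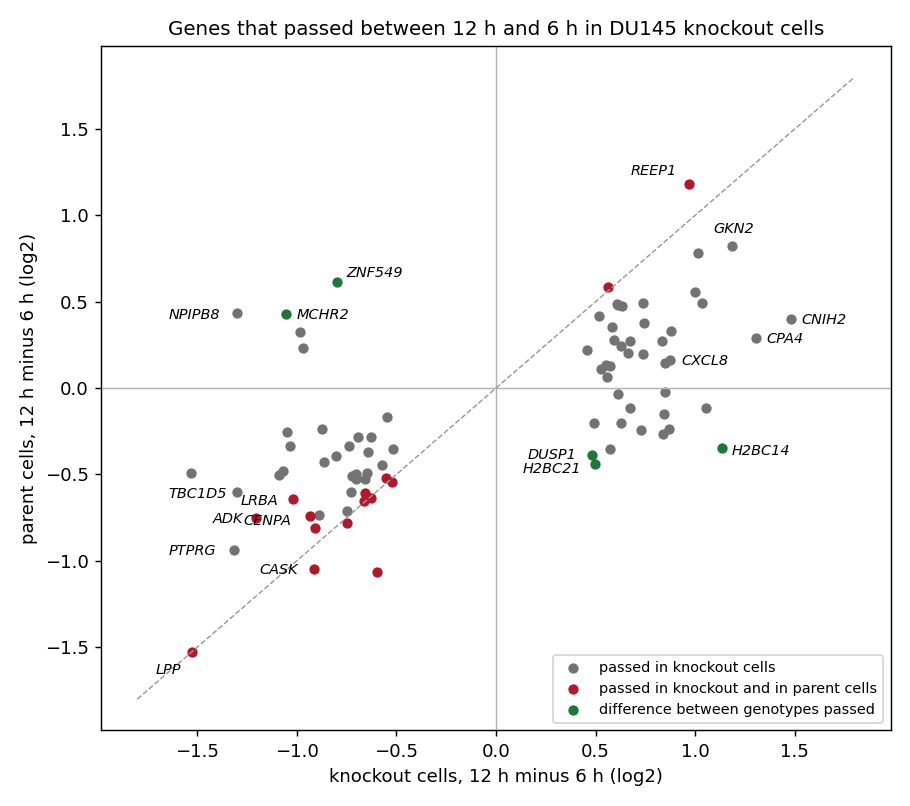
The 86 genes that passed in DU145 SLFN11-knockout cells, by their log2 difference, 12 h minus 6 h, in knockout cells (horizontal axis) and parent cells (vertical axis). Red points passed in parent cells too, and green points passed the test of the difference between the genotypes. LPP and CASK lie near the dashed line of equal change, and H2BC14, H2BC21 and DUSP1 lie below 0 in parent cells.

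The time difference in knockout cells minus that in parent cells passed for 6 genes of 22260 (0.027%), 4 with a higher value in knockout cells (0.018%) and 2 with a lower one (0.00898%). H2BC14, H2AC12 and H2BC21, all histone genes, and DUSP1 made up the 4. H2BC14 rose by 1.14 ± 0.12 in knockout cells, against -0.35 ± 0.12 in parent cells, a difference of 1.48 (95% interval 1.13 to 1.83, adjusted p = 0.00463). In parent cells its control, 6 h and 12 h means were 10.07, 8.57 and 8.22. H2AC12 was at 0.66 ± 0.14 in knockout and -0.60 ± 0.14 in parent cells, a difference of 1.27 (0.86 to 1.67, adjusted p = 0.0333). H2BC21 was at 0.50 ± 0.10 in knockout and -0.44 ± 0.10 in parent cells, a difference of 0.94 (0.64 to 1.23, adjusted p = 0.0318). DUSP1 was at 0.48 ± 0.09 in knockout and -0.39 ± 0.09 in parent cells, a difference of 0.87 (0.60 to 1.14, adjusted p = 0.0318). In parent cells DUSP1 had risen by 6 h, with control, 6 h and 12 h means of 10.46, 11.54 and 11.15. The 2 lower genes were MCHR2, at -1.49 ± 0.22, and ZNF549, a zinc finger protein, at -1.41 ± 0.20 (adjusted p = 0.0318 each). Both were dim, with DU145 group means of 4.85 to 5.94 for MCHR2 and 5.10 to 5.99 for ZNF549. With the mean of all probe sets 1 of the 6 passed, DUSP1 (0.88, adjusted p = 0.00257). H2BC14 was then at 1.35 (0.0507), H2BC21 at 0.66 (0.131), H2AC12 at 0.50 (0.306), MCHR2 at -0.32 (0.594) and ZNF549 at -0.38 (0.786), so these 3 histone calls were lost. Other histone genes passed in that fit, 5 of the 26 higher and 0 lower: H1-2, H1-4, H2AC6, H2AC21 and H2BC5. The list's median was then 0.532. With all 36 arrays in 1 fit 8 histone genes passed, and 7 with a variance trend and robust moderation, all higher. Cyclic loess gave 3, the replicate block 1 and the housekeeping shift 0. On the brightest probe set H2BC14 passed without any one of the 12 arrays at these times. Every other of the 6 lost the call without at least 9 of them, at adjusted p of up to 0.140 for H2AC12, H2BC21, DUSP1 and MCHR2 and 0.110 for ZNF549. With arrays shifted to equal housekeeping medians limma called 0 genes (1210 at an unadjusted p below 0.05).

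As a group the histone genes differed by a median of 0.632 between the genotypes, against 0.018 over all genes, with 3 of 26 passing higher and 0 lower. In parent cells 0 rose and 3 fell, and the median was -0.373, against 0.087 in knockout cells. The immediate early genes had a median difference of 0.420 with 1 of 45 passing, and in parent cells 0 rose and 5 fell with a median of -0.227. JUN, at 0.14 ± 0.12 in knockout and -0.79 ± 0.12 in parent cells, differed by 0.93 (0.57 to 1.29, adjusted p = 0.0842), and did not pass. It did pass with the mean of all probe sets, with all 36 arrays in 1 fit and with a variance trend and robust moderation. JUN did not pass with cyclic loess, a replicate block or the housekeeping shift. With the mean of all probe sets 7 of the 45 passed, all higher: JUN, ATF3, MYC, KLF6, DUSP1, CSRNP1 and PPP1R15A. The control, 6 h and 12 h means of JUN were 8.89, 8.92 and 9.06 in knockout cells, against 8.78, 10.67 and 9.88 in parent cells. Between the genotypes 0 of 55 DNA replication genes passed with limma, with 1 higher and 1 lower at an unadjusted p below 0.05. Of 53 mitotic genes 0 passed, with 2 higher and 5 lower at an unadjusted p below 0.05. Over all 22260 genes 1593 were below that p in this test, in either direction.

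The CCRF-CEM knockout cells were measured at the same times. There 115 genes passed (0.517%), 80 higher at 12 h (0.359%) and 35 lower (0.157%), a split of 24 higher and 29 lower after a shift to equal housekeeping medians. The difference between the time differences of the lines, DU145 knockout minus CCRF-CEM knockout, was tested across all 36 arrays, a test added after seeing the data. It passed for 134 genes (0.602%), 45 with a higher value in DU145 (0.202%) and 89 with a lower one (0.4%). Among the 86 genes of the DU145 knockout cells 33 passed, 12 of those higher and 21 of those lower, but these 86 had been chosen by the DU145 values that enter the test. LPP was at -1.53 ± 0.16 in DU145 and 0.81 ± 0.18 in CCRF-CEM knockout cells, a difference of -2.34 ± 0.24 (adjusted p = 8.05e-06). In CCRF-CEM its control, 6 h and 12 h means were 9.82, 7.57 and 8.39. CCNB1 was at -0.63 ± 0.11 in DU145 and 0.43 ± 0.11 in CCRF-CEM knockout cells, a difference of -1.06 ± 0.15 (adjusted p = 0.000379). H2BC14 was at 1.14 ± 0.12 in DU145 and -0.10 ± 0.16 in CCRF-CEM knockout cells, a difference of 1.23 ± 0.19 (adjusted p = 0.00123).

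Mitotic genes as a list also differed between the lines, with 9 of 53 passing lower in DU145 and 0 higher, and a median difference of -0.338. In CCRF-CEM 7 of the 53 rose, 0 fell and the median was 0.311, against -0.068 in DU145. KIF20A was at -0.58 ± 0.12 in DU145 and 0.74 in CCRF-CEM knockout cells, a difference of -1.32 ± 0.17 (adjusted p = 9.02e-05). PLK1 was at -0.34 ± 0.12 in DU145 and 0.56 in CCRF-CEM knockout cells, a difference of -0.90 ± 0.14 (adjusted p = 0.00141). Among the very long genes 5 of 61 passed lower in DU145 and 0 higher, and in CCRF-CEM 0 of 61 passed between the times, with a median of 0.139.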

How the data were processed

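Gene expression was measured on 36 arrays from 100 ng of RNA each, 3 per group, and the 6 arrays of SLFN11-knockout DU145 cells at 12 h and 6 h are the subject. The authors deposited log2 values per probe set for all arrays together, made with Partek and RMA per the submitters' processing notes. Scanner files were not used here, and no batch, scan date or genome build is stated. The number of arrays limits the precision.

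Of 352859 probe sets 259224 carry 1 gene symbol, 13116 several and 80519 none. A gene was its brightest probe set with 1 symbol (mean over all arrays), giving 22260 genes. Old symbols were updated through the RefSeq gene table (20529 current, 1726 updated, 65 unmatched). Differences came from limma 3.58.1 (lmFit and eBayes) in R 4.3.3 on the 18 DU145 arrays, with Benjamini-Hochberg adjustment over all genes and a threshold of 0.05, and CCRF-CEM was fitted on its own. The difference between the lines was fitted on all 36 arrays, a choice made after seeing the data. Genes named are the 12 largest protein-coding changes in each direction among those passing, the targeted gene, list members that passed and genes that passed between the genotypes. Others are said to be chosen after their values were seen or are examples from the lists. The comparison, its gene lists and the rule were chosen with earlier results of these data known. The promoter windows are RefSeq's, on GRCh38.p14. Alternatives were other normalizations, filters, fits and summaries of probe sets, a replicate block, and leaving out each array.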

Additional observations from a re-analysis of the deposited data

Results flagged for a closer look

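The time difference, 12 h minus 6 h, differed between DU145 knockout and parent cells by the limma test of that difference for 6 genes described above. In log2 it was higher in knockout cells by 1.483 for H2BC14, 1.266 for H2AC12, 0.9357 for H2BC21 and 0.8709 for DUSP1. It was -1.486 for MCHR2 and -1.41 for ZNF549, lower in knockout cells.

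Between the DU145 and CCRF-CEM knockout cells the same kind of test passed for 16 of the named genes, which had been named for their DU145 values. The difference, DU145 minus CCRF-CEM, was above 0 for CNIH2 (1.559), H2BC14 (1.231), AQP3 (1.425), SLC1A4 (1.011), PHGDH (0.6113) and MYBL2 (0.4865). It was below 0 for LPP (-2.34), PTPRG (-2.797), TBC1D5 (-1.549) and SMYD3 (-0.8926), which are on the list of very long genes. Genes not on that list and also below 0 were ADK (-1.437), LRBA (-1.543), C6orf120 (-1.006), CENPA (-1.33), CCNB1 (-1.061) and HSPA5 (-0.7392). Line, knockout and culture cannot be told apart in this comparison.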

How the results depend on the processing

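The count of 86 genes in DU145 knockout cells was 37 with a replicate block, 0 with only the 6 arrays compared (2447 at an unadjusted p below 0.05), 243 with all 36 arrays in 1 fit, 178 with a variance trend and robust moderation, 237 over genes at or above the median level, 33 after a housekeeping shift, 325 with the mean of all probe sets, 54 of them among the 86, and 43 over all probe sets one by one. Leaving out 1 array gave 11 to 23. Cyclic loess gave 80 and array weights 121. The cause was not tested.

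The 6 genes of the genotype difference became 3 with the replicate block, 0 with only the arrays compared (1612 at an unadjusted p below 0.05), 25 with 36 arrays, 16 with the trend, 11 with array weights, 22 above the median level (3, 4, 6 and 4 of the 6 among them), 0 after the housekeeping shift, 27 with the mean of probe sets (1 of the 6 among them), 0 over all probe sets (21289 at an unadjusted p below 0.05) and 1 to 3 without 1 array. Parent cells gave 43 with the block, 265 above the median level, 31 after the shift and 17 to 86 without 1 array, against 101. CCRF-CEM gave 393 above the median level, 53 after the shift and 21 to 109 without 1 array, against 115. The difference between lines gave 5 with only the arrays compared, 70 after the shift, 247 above the median level and 55 to 166 without 1 array, against 134.

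Over 41 named genes and 364 results, leaving out no array, 258 kept their side of the threshold, 99 lost it, 4 gained it and 3 changed sign. In the fits without 1 of the 6 knockout arrays 169 of 246 lost it and 77 kept their side. The mean of all probe sets gave 0.207 for MYO7A, 0.0045 for MCHR2 and -0.156 for H2BC21. Same-numbered arrays of different DU145 groups were compared by their deviations from their own group means. These deviations were not clearly alike: 0 of 45 of their correlations were above 0.1 (-0.17 to 0.09). The deviations of each DU145 parent control array correlated best with those of the same-numbered knockout control, at r of 0.09, 0.01 and 0.06. Such low values cannot show whether the arrays were handled in pairs.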
